A study of Mus musculus with 284 samples.

Results

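Suprabasal-leaning cells were taken here from 284 single tumour propagating cells of mouse skin tumours, the cells defined by their capacity to seed a new tumour. They were chosen by measured values: each cell was given a score, the mean of log2(CPM + 1) over Krt1, Krt10, Krtdap, Sbsn, Lgals7, Ly6d and Calm4, and the highest 25% of the cells of each mouse by this score became the members. CPM scales the count of a gene to the total of its cell or sum. This gave 71 members of 284 cells: 18 of 73 cells of KO1 and 14 of 54 cells of KO3, the mice labelled Sirt6-/-, and 17 of 69 cells of WT1 and 22 of 88 cells of WT2, the wild-type mice. They were set against the other 213 cells of the same mice (55, 40, 52 and 66 cells in KO1, KO3, WT1 and WT2). All 4 mice were C57BL/6, received DMBA, a mutagen, once at 8 weeks of age and then TPA, a tumour promoter, for over 20 weeks, and all carried ROSA26-LSL-eYFP with Keratin14-Cre, so that YFP marks cells of the keratin 14 lineage. Cells positive for CD34, CD49f (integrin alpha 6) and YFP and negative for propidium iodide were sorted one per well, which limits the series to cells that still showed these surface proteins. The mouse is the replicate throughout, with 4 mice for the members against the other cells and 2 mice for each genotype.

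In stratified epidermis, dividing keratinocytes of the basal layer are anchored to the basement membrane by hemidesmosomes and integrins and carry keratins 5 and 14. On leaving this layer they switch to keratins 1 and 10, loosen the anchorage, strengthen desmosomes and tight junctions, and later make the proteins and lipids of the cornified envelope. Squamous tumours keep parts of this order, and tumour propagating cells are usually placed at its basal end.

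The cells held between 523999 and 1684464 counts (median 1130412), and the sums of counts per mouse lay between 66335552 and 92622682. Sirt6, the targeted gene, lay at 27.2 and 12.9 CPM in members of KO1 and KO3, against 9.91 and 21.6 CPM in members of WT1 and WT2, and in the other cells at 26.9 and 15.0 CPM against 18.9 and 26.5 CPM. Its level therefore does not separate the labelled genotypes, and counts summed over a gene do not show whether some exons are missing. The genotypes were sorted into different plates, and genotype and plate cannot be told apart. Of the members, 16 of KO1 lay on plate 1 and 2 on plate 2, all 14 of KO3 on plate 2, all 17 of WT1 on plate 3, and 20 of WT2 on plate 4 and 2 on plate 3.

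The letters before the starts of 5 genes are shown because these genes carry the 2 ends of the described difference: 3 genes of the score, 1 further gene higher in the members (Rab25) and 1 lower (Col17a1). Each run is the 250 bases before the start of the gene in RefSeq on GRCm38.p6, 5′ to 3′ on the strand of the gene. Capitals mark matches, on either strand, to the AP-1 motif TGANTCA and to the TATA box TATAAA.
Krt10 (chr11:99389365-99389614, minus strand): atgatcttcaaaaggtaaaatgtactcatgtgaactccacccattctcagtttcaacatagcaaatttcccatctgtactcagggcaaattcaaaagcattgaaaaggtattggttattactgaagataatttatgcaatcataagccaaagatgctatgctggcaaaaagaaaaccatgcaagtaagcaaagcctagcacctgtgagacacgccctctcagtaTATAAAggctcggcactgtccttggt
Krtdap (chr7:30787655-30787904, plus strand): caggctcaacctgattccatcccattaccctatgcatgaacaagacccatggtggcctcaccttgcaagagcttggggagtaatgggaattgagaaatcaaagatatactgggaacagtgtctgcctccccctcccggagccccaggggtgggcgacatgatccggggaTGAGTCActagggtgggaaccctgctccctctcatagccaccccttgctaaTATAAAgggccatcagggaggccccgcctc
Sbsn (chr7:30751221-30751470, plus strand): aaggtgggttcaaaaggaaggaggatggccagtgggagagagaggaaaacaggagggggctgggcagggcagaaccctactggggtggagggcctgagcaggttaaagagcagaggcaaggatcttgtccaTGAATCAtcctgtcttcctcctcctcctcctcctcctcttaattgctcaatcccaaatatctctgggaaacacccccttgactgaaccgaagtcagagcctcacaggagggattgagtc
Rab25 (chr3:88548280-88548529, minus strand): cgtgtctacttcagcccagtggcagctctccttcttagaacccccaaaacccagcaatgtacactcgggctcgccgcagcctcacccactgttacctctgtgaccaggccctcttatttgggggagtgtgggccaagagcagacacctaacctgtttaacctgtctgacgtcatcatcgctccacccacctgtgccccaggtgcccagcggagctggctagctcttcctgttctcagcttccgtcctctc
Col17a1 (chr19:47692043-47692292, minus strand): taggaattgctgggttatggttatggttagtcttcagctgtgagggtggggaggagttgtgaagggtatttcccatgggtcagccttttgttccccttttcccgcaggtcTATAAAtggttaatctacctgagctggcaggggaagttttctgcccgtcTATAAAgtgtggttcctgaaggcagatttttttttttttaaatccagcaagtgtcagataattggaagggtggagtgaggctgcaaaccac
The AP-1 match of Krtdap began 81 bases before the start and that of Sbsn 119 bases before it. TATA matches began 26 bases before the start of Krt10 and 30 before that of Krtdap, and 140 and 91 bases before that of Col17a1. Of all 32851 promoter windows of the same length, 6.75% held the AP-1 letters, 12.4% the TATA letters, 36.8% the C/EBP letters TTNNGNAA, 52.0% the letters CACCC and 66.2% the E-box letters CANNTG. Of the 5 genes of the score with a sequence in the table, 2 held AP-1, 2 TATA, 3 C/EBP, 4 CACCC and 3 E-box letters. These are letter matches only.

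**Figure D1:**
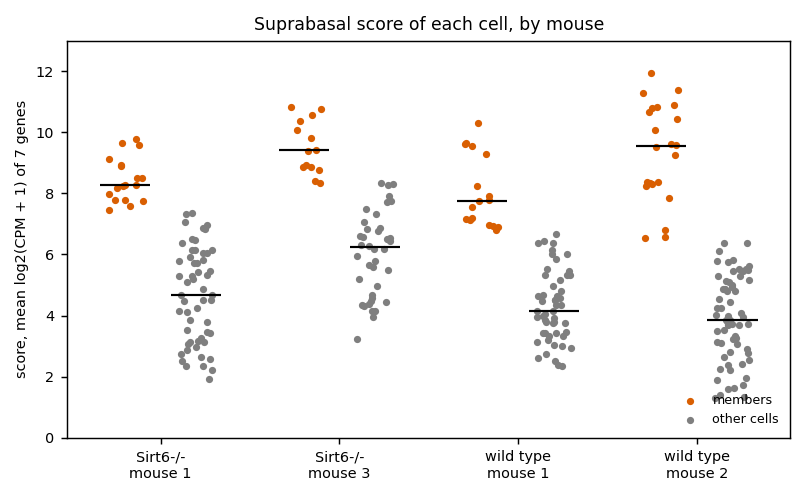
Suprabasal score of each cell (vertical axis, mean log2(CPM + 1) of the 7 genes), with members to the left of other cells within each mouse; each point is a cell and each bar a median. Member medians lie between 7.76 and 9.55, and the cut falls at a different score in each mouse.

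The 7 genes of the score describe the choice and were not tested. Krt1, the keratin that pairs with keratin 10 in suprabasal cells, lay at 643, 1085, 843 and 4010.3 CPM in the members of KO1, KO3, WT1 and WT2, against 5.65, 37.3, 7.96 and 1.77 CPM in the other cells of the same mice. Krt10 lay at 80.3, 630.1, 301 and 2056 CPM in the members, against 12.7, 11.2, 3.31 and 1.96 CPM in the other cells. Both keratins were highest in the members of WT2 and lowest in those of KO1, and no mouse overlapped between the classes. Calm4, a calcium-binding calmodulin of skin, lay at 2698, 2286, 911 and 2702 CPM in members against 275, 358, 75.1 and 142 CPM in the other cells. Ly6d, a surface protein of the LY6 family, lay at 1564, 3021, 1034 and 1401 CPM against 293, 721, 300 and 72.6 CPM. Krtdap, a secreted protein of differentiating keratinocytes, lay at 1219, 1549, 830.2 and 850 CPM against 372, 899, 461 and 143 CPM, so that the other cells of KO3 lay above the members of WT1 and WT2. Sbsn, suprabasin, lay at 200.1, 206, 138 and 188 CPM against 44.9, 79.3, 85.4 and 49.6 CPM. Lgals7, galectin-7 of stratified epithelia, separated the classes least, at 1021, 1179, 1169 and 1710 CPM against 907, 1122, 714 and 1043 CPM, with overlap between mice.

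**Figure D2:**
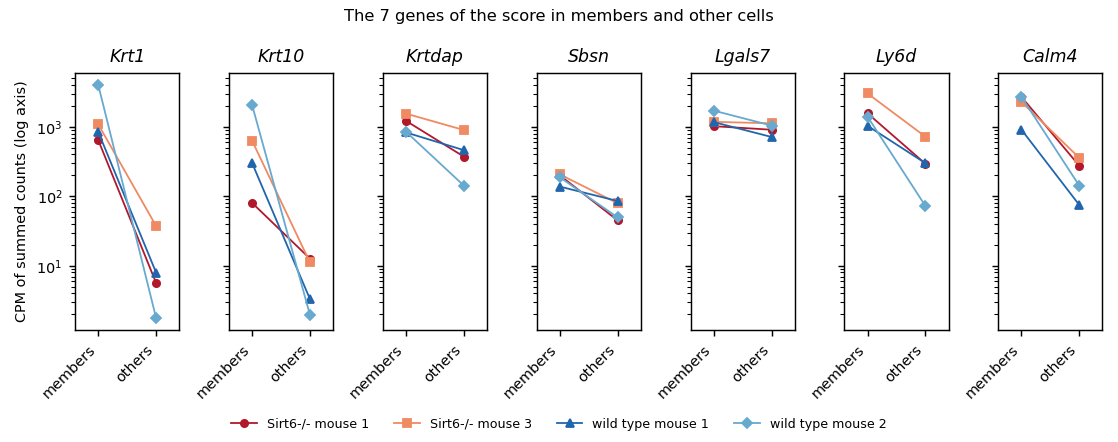
CPM of summed counts (log axis) of each gene of the score in members (left) and other cells (right), 1 line per mouse. Krt1 and Krt10 show the widest gap and Lgals7 the narrowest.

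Counts of Krt1 were found in 64 of 71 members (90.1%) and in 27 of 213 other cells (12.7%), and after thinning each cell to 500000 counts in 90.1% and 11.3%. Krt10 was found in 56 members (78.9%) and 72 other cells (33.8%). Both keratins together were found in 53 members and 13 other cells, Krt1 alone in 11 members and 14 other cells, and Krt10 alone in 3 members and 59 other cells. Lgals7, Ly6d, Calm4 and Krtdap had counts in every member, and Lgals7 also in every other cell. The classes thus differed in Krt1 and Krt10 by the share of cells with counts, and in Lgals7 by amount. All 7 genes were found in 10, 14, 9 and 19 members of KO1, KO3, WT1 and WT2, against 3, 7, 0 and 0 other cells. When each gene was left out and the members chosen anew on the other 6, the gene left out was still higher in the chosen cells of every mouse, by 1.05 to 1.64-fold for Lgals7 and by 9.01 to 1760-fold for Krt1. Each new choice shared most of its cells with the members, at the fewest 11 of 14 in KO3 without Krt10. This describes the score and is not separate evidence for the class. Within a mouse the 21 pairs of genes had a median Spearman correlation over cells of 0.37, 0.41, 0.31 and 0.53, given as a description over cells that mostly share a library plate. The pairs ran from -0.11 to 0.74 in KO1, 0.04 to 0.77 in KO3, -0.17 to 0.78 in WT1 and 0.33 to 0.77 in WT2, so some pairs were unrelated.

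The cut falls on a continuous range. The lowest member and the highest other cell had scores of 7.46 and 7.36 in KO1, 8.36 and 8.33 in KO3, 6.80 and 6.67 in WT1, and 6.54 and 6.39 in WT2, and 4, 5, 5 and 4 cells lay within 0.25 of the cut. The highest other cell of KO3 thus scored above the median member of WT1 (7.76), since a fixed share was taken from each mouse. Members had a median of 6582, 6566, 7145 and 6256 detected genes in KO1, KO3, WT1 and WT2, against 6260.0, 6723, 6887 and 5577 in the other cells. Median totals were 1173780, 1231403, 1148958 and 1058544 counts in members, against 1094872, 1280324, 1159281 and 1041459 in the other cells. The score correlated over cells with the number of detected genes at Spearman's rho = 0.34, -0.03, 0.28 and 0.49, and with the total at 0.18, -0.19, 0.07 and -0.08. After the trends on both were removed from the score, 16, 14, 16 and 19 members were still members in KO1, KO3, WT1 and WT2. A class cut from a score is a range of cells and not a cell type.

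Members still held the transcripts of the basal keratins. Krt14 and Krt5, the basal keratins, had counts in 71 of 71 members and 213 of 213 other cells. Krt14 lay at 28970, 26260, 23219 and 24585 CPM in the members of KO1, KO3, WT1 and WT2, against 18164, 26521, 23435 and 32060 CPM in the other cells, without a common direction. Of the 64 members with Krt1, 48 also had counts of Col17a1 and 48 of Itgb1, both genes of basal anchorage. At the other end, Lor, the main protein of the cornified envelope, was found in 2 members and 4 other cells, and Flg, Flg2 and Hrnr were at 0 in every cell. Of the 31 genes of late differentiation, the median member had counts of 6, 8, 4 and 5 in KO1, KO3, WT1 and WT2, against 2, 4, 2 and 2 in the median other cell. Of the 71 members, 53 thus combined Krt1 and Krt10 with basal keratins. The median member held more of the late genes than the median other cell of its mouse, while Lor, Flg, Flg2 and Hrnr were at or near 0.

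**Figure D3:**
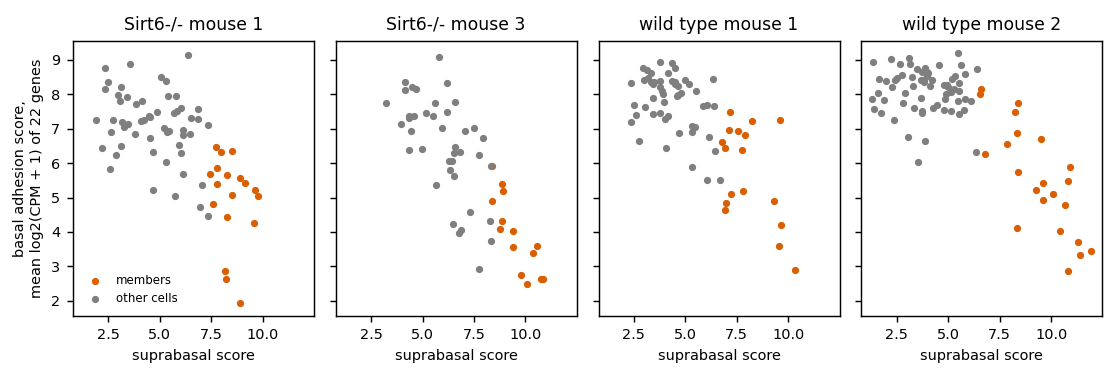
Basal adhesion score (vertical, mean log2(CPM + 1) of 22 genes of anchorage and basal identity) against the suprabasal score (horizontal), 1 panel per mouse and 1 point per cell. Cells with high suprabasal scores have lower basal adhesion scores, with rho between -0.54 and -0.81 within a mouse.

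Along the score, some genes changed in the same direction at every step and others did not. A step of any size was counted. The largest step of an ordered gene could also lie at the members, as for Col17a1 in KO1 and WT2. With the other cells of a mouse split by score into 3 equal parts, Col17a1, a transmembrane collagen of the hemidesmosome, lay at 1709, 1577, 1299 and 267 CPM in the lowest, middle and upper part and the members of KO1. In KO3 it lay at 1565, 1055, 503 and 210.1 CPM, in WT1 at 2441, 2166.05, 1447 and 506 CPM, and in WT2 at 4624, 3587, 3062 and 890.3 CPM. Trp63, the transcription factor of basal keratinocytes, and Cd34, the sorted surface marker, were likewise lower at every step in 4 of 4 mice. Other anchorage genes were ordered in fewer mice: Itgb1 in 3, Lamb3 and Plec in 2 each and Itga6 in 1. Lamb3 lay at 238, 219, 307 and 48.9 CPM in KO1, and Itga6 at 281, 193, 310.1 and 104 CPM in WT2, where the drop lay at the members. Perp, a tetraspan protein of desmosomes, was higher at every step in 4 of 4 mice, with 1944, 2704, 3965 and 6238 CPM in KO1 and 2643, 2754, 3236 and 7350 CPM in WT2. Dsc3, a desmosomal cadherin, did the same in 4 of 4 mice. Krt5 was ordered in 0 of 4 mice and Mki67, a gene of dividing cells, in 0 of 4. Krt16, a keratin of wounded epidermis, was higher at every step in 3 of 4 mice, and in WT1 the upper part (7772 CPM) lay above the members (4820 CPM). These orders describe the range that the score defines and were not tested.

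The comparison of members with other cells asked which further genes differ with this state in every mouse. Counts were summed over the members and over the other cells of each mouse, and the 8 sums were fitted with the mouse as a block. Levels of tested genes are given as scaled CPM, the CPM of these sums after TMM scaling. Of 13867 genes tested, edgeR's quasi-likelihood test called 23 (0.166%) at an adjusted p under 0.05, of which 8 (0.0577%) were higher and 15 (0.108%) lower in members. Without adjustment, 2117 genes (15.3%) had a p under 0.05. Members lay above the other cells in all 4 mice for 1563 genes (11.3%) and below them for 2147 genes (15.5%), and the median log2 difference of all genes was -0.11. The cells were ranked and tested on the same libraries, so the test asks whether a difference accompanies the score in every mouse. The filter on low counts works by class, so a gene found in members alone can pass it.

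Dsg1b, Perp and Dsc3, genes of desmosomes, the junctions that hold keratinocytes to each other, were among the genes called higher in members. Dsg1b had the largest difference of these called genes, while Perp and Dsc3 had smaller ones than most of them. Dsg1b, a desmoglein of suprabasal layers, rose in members, with 40.3, 200.3, 81.7 and 78.1 scaled CPM in KO1, KO3, WT1 and WT2, against 4.48, 23.6, 9.21 and 6.52 in the other cells. Every member sum lay above every other-cell sum, and the log2 difference was 3.25 (SE 0.17, edgeR, adjusted p = 0.0149). Its counts were found in 53 members (74.6%) and 24 other cells (11.3%); reads of the closely similar Dsg1a may be shared with it. Perp rose to 6388, 7368, 5766 and 7613 scaled CPM in members, against 2745, 3041, 2700.0 and 2937 in the other cells (log2 difference 1.24, SE 0.08, edgeR, adjusted p = 0.018). The 4 member sums did not overlap the 4 other sums. Dsc3 rose to 906, 1311, 1179 and 1556 scaled CPM against 419.5, 544, 635 and 787 (log2 difference 1.06, SE 0.10, edgeR, adjusted p = 0.0434).

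Of the 11 tested genes of the desmosome list of 12, 10 had a positive difference, 2 were called higher and 9 lay higher in all 4 mice, with a median log2 difference of 1.06. Jup, plakoglobin, lay at 1803 scaled CPM on average in members against 828 in the other cells (log2 difference 1.12, SE 0.14, edgeR, adjusted p = 0.059). The envelope linker Evpl had a difference of 2.02 (SE 0.43, edgeR, adjusted p = 0.142) and the plaque protein Pkp1 of 1.09 (SE 0.19, edgeR, adjusted p = 0.105). Dsg2, a desmoglein of simple and basal epithelium, lay lower in members of all 4 mice, at -2.41 (SE 1.13, edgeR, adjusted p = 0.397). Dsp, desmoplakin, had a difference of 0.55 (SE 0.19, edgeR, adjusted p = 0.274).

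A further 5 genes rose in members, each without overlap between member and other sums unless stated. Plbd1, a phospholipase B-like protein, rose to 155, 272, 131 and 292 scaled CPM against 35.1, 72.0, 49.9 and 89.3 (log2 difference 1.79, SE 0.16). Rab25, a small GTPase of epithelial membrane recycling, rose to 438, 686, 459 and 409 scaled CPM against 164, 325, 157 and 128 (1.43, SE 0.13). Tmprss13, a transmembrane serine protease, lay at 119, 281, 97.5 and 175 scaled CPM against 41.8, 98.8, 46.6 and 63.9, where the other cells of KO3 lay above the members of WT1 (1.38, SE 0.13). S100a16, a calcium-binding protein, rose to 646, 762, 527 and 664 scaled CPM against 210.0, 355, 243 and 264 (1.29, SE 0.12). Ezr, ezrin, which ties the membrane to actin, rose to 415, 598, 525 and 678 scaled CPM against 219.7, 317, 276 and 392 (0.89, SE 0.08). All 5 had an adjusted p of 0.0434 by edgeR. Here and for the other called genes, overlap is described for genes that the test had already picked. The share without overlap over all tested genes was not counted, so a lack of overlap is not further evidence.

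**Figure D4:**
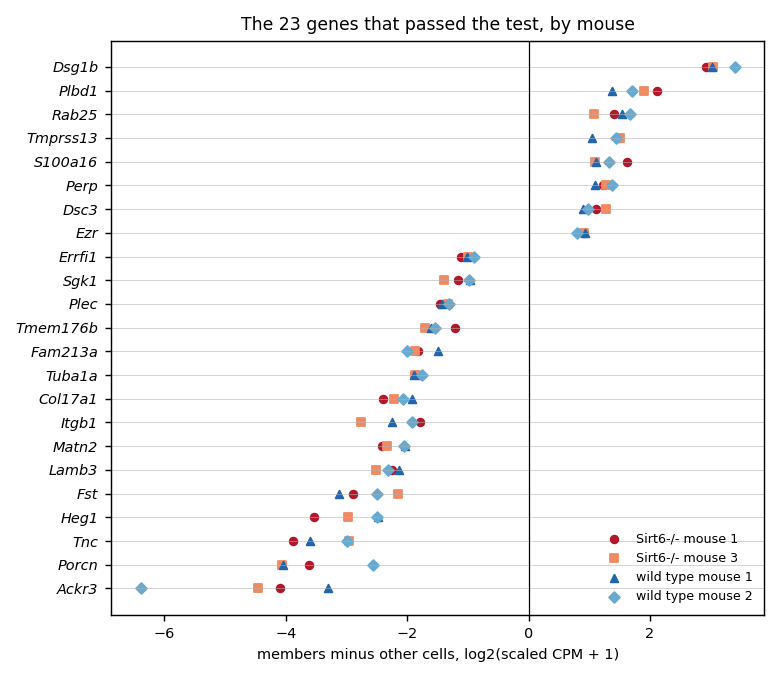
Difference of members minus other cells, log2(scaled CPM + 1), for the 23 genes that passed edgeR's test, 1 point per mouse. Every point of the 8 upper genes lies right of 0 and every point of the 15 lower genes left of it.

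Genes of anchorage to the basement membrane lay mostly lower in members. Of the 22 genes of the basal adhesion list, 20 had a negative difference, 4 fell in members by edgeR's test and 18 lay lower in all 4 mice, with a median log2 difference of -2.08. Col17a1 fell to 274, 220.5, 513 and 922 scaled CPM in members, against 1450, 1031, 1944 and 3871 in the other cells (log2 difference -2.16, SE 0.11, edgeR, adjusted p = 0.0149). Every member sum lay below every other sum. Lamb3, a chain of the laminin that hemidesmosomes bind, fell to 50.0, 51.4, 93.6 and 106 scaled CPM against 242, 297, 412 and 531 (-2.32, SE 0.11, edgeR, adjusted p = 0.0149). Its counts were found in 27 members (38.0%) and 186 other cells (87.3%). Itgb1, integrin beta 1, fell to 129, 55.4, 165 and 159 scaled CPM against 447, 380, 784 and 604 (-2.19, SE 0.19, edgeR, adjusted p = 0.0434). Plec, plectin, which ties hemidesmosomes to keratins, fell to 209.7, 146, 235 and 381 scaled CPM against 579, 369, 631 and 950 (-1.39, SE 0.08, edgeR, adjusted p = 0.0175), with the members of WT2 above the other cells of KO3.

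The partners of these genes lay on the same side without passing the test. Lama3, a further laminin chain, was lower in all 4 mice (-2.38, SE 0.36, edgeR, adjusted p = 0.084). The integrin genes Itgb4 (-1.998, SE 0.29, edgeR, adjusted p = 0.084), Itga3 (-2.75, SE 0.47, adjusted p = 0.105) and Itga2 (-7.51, SE 1.10, adjusted p = 0.084) were too, Itga2 averaging 0.16 scaled CPM in members and 20.9 in the other cells. Col7a1, the anchoring fibril collagen, averaged 19.1 against 115.8 scaled CPM (-2.90, SE 0.38, edgeR, adjusted p = 0.072). Krt15, a keratin of basal and follicle stem cells, averaged 118 against 1276 scaled CPM (-4.27, SE 0.96, edgeR, adjusted p = 0.154). Trp63 averaged 229 against 445 scaled CPM (-0.98, SE 0.14, edgeR, adjusted p = 0.081). Krt5 (-0.38), Krt14 (0.15), Egfr (-0.26) and the hyaluronan receptor Cd44 (0.23) were the 4 genes of the list that did not share one direction over the mice.

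The proteins of the sort gate have their transcripts on this side as well. Itga6 averaged 101 scaled CPM in members and 228 in the other cells (-1.26, SE 0.22, edgeR, adjusted p = 0.105), and Cd34 averaged 65.5 and 264 (-1.94, SE 0.22, edgeR, adjusted p = 0.055). Both were lower in members in 4 of 4 mice. Counts of Cd34 were found in 41 members (57.7%) and 166 other cells (77.9%), although all cells were sorted as positive for the protein. Where members lie within the CD34 and CD49f gate was not tested.

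The remaining 11 lower genes hold matrix proteins, signalling inhibitors and receptors. Tnc, the matrix protein tenascin C, fell to 3.13, 5.64, 16.1 and 47.2 scaled CPM in members, against 60.0, 50.6, 207 and 381 in the other cells (-3.52, SE 0.26, edgeR, adjusted p = 0.0273). Matn2, a matrilin of the matrix, fell to 30.0, 14.8, 34.1 and 31.6 scaled CPM against 164, 78.9, 143 and 134 (-2.25, SE 0.14, edgeR, adjusted p = 0.018). Porcn, the acyltransferase needed for secretion of WNT proteins, fell to 14.2, 3.93, 9.09 and 18.9 scaled CPM against 186, 81.5, 165 and 116 (-3.72, SE 0.35). Fst, follistatin, which binds activin, fell to 12.6, 14.2, 9.52 and 6.86 scaled CPM against 99.9, 66.9, 90.2 and 43.2 (-2.78, SE 0.24). Errfi1, a feedback inhibitor of the EGF receptor, fell to 115, 156, 126 and 253 scaled CPM against 249.9, 314, 255 and 473 (-1.01, SE 0.09), with the members of WT2 level with the other cells of KO1 and WT1. Sgk1, a kinase induced by serum and glucocorticoid, fell to 444, 206, 641 and 805 scaled CPM against 993, 542, 1251 and 1594 (-1.13, SE 0.11), with the members of WT1 and WT2 above the other cells of KO3.

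Smaller or less characterised genes complete the group. Log2 differences were -3.23 (SE 0.29) for the transmembrane receptor Heg1, -1.92 (SE 0.18) for the tubulin gene Tuba1a, -1.81 (SE 0.13) for the peroxiredoxin-like Fam213a and -1.54 (SE 0.14) for the membrane protein Tmem176b. The adjusted p by edgeR was 0.0268 for Fam213a and 0.0434 for Heg1, Tuba1a, Tmem176b, Porcn, Fst, Errfi1 and Sgk1. Ackr3, a receptor that removes the chemokine CXCL12, was found in 1 of 71 members and 41 of 213 other cells (edgeR, adjusted p = 0.0153). It lay at 0, 0, 0 and 0.04 scaled CPM in members against 16.1, 20.9, 8.91 and 86.1 in the other cells, and no fold is given for so few member counts.

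The 23 calls depended on the number of mice, the cut, the block, the filter and the score. Each of the 23 kept its sign in every alternative in which it was tested. With any 1 mouse left out, with the highest 20% of cells or without the mouse as a block 0 of the 23 remained called. The number that remained was 5 with the score lacking Sbsn, 7 with depth and detection trends removed, 9 with no filter on low counts and 23 with limma-voom and DESeq2.

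Early differentiation genes lay higher in members beyond the genes of the score. Of the list of 30, 25 were tested, 23 had a positive difference, 1 (Dsg1b) was called and 21 lay higher in all 4 mice, with a median log2 difference of 2.28. Fabp5, the epidermal fatty acid carrier, averaged 6832 scaled CPM in members and 1473 in the other cells (2.45, SE 0.38, edgeR, adjusted p = 0.0877). Dmkn, dermokine, a secreted suprabasal protein, averaged 1469 and 510.2 (1.56, SE 0.16, edgeR, adjusted p = 0.0547). Lypd3, a surface protein of suprabasal cells, averaged 1530 and 381 (2.25, SE 0.42, edgeR, adjusted p = 0.115), and Klk10, a kallikrein protease, 1538 and 479 (2.10, SE 0.41, edgeR, adjusted p = 0.127). Aqp3, an aquaglyceroporin, averaged 1866 and 971 (1.03, SE 0.18, edgeR, adjusted p = 0.109), and Ptgs1, cyclooxygenase 1, 173 and 41.4 (2.28, SE 0.37, edgeR, adjusted p = 0.0991). Dsg1a averaged 76.7 and 1.84 (5.86, SE 0.79, edgeR, adjusted p = 0.074). Il18 (-0.36) and Cyb5r1 (-0.30) were the 2 negative genes. Untested for low counts were Krt77, found in 2 members and 0 other cells, and Krt2, found in 2 members and 1 other cell.

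Late differentiation genes lay mostly higher in members, without a call. Of the list of 31, 17 were tested, 16 had a positive difference, 0 were called and 9 lay higher in all 4 mice, with a median log2 difference of 2.77. Sprr1b, a small proline-rich envelope protein, averaged 443 and 80.3 scaled CPM (3.32, SE 0.70, edgeR, adjusted p = 0.141) and had counts in 49 members and 69 other cells. Spink5, an inhibitor of epidermal kallikreins, averaged 780 and 265 (2.11, SE 0.67, edgeR, adjusted p = 0.243), and Tgm3, an epidermal transglutaminase, 128 and 26.6 (3.33, SE 1.06, edgeR, adjusted p = 0.243). Ivl, involucrin, was found in 5, 5, 1 and 5 members of KO1, KO3, WT1 and WT2 and in 3, 7, 4 and 2 other cells, and its difference was negative in WT1 (-1.56) and positive in the other 3 mice (1.13 to 5.06). Casp14, the caspase of cornification, averaged 30.9 and 6.41 (3.20, SE 1.35, edgeR, adjusted p = 0.352). Sprr2a1 (-0.10) was the negative gene; reads of the Sprr2 family may be divided among near-identical copies. Rptn, Sprr3 and Crct1 were at 0 in all other cells, and against a floor of 3 counts over that group lay at least 308-fold, 149-fold and 169-fold higher in members, bounds that cover counting error only; Rptn rested on 1 cell.

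Barrier lipid genes followed the same side with smaller differences. Of 21 genes, 19 were tested, 17 were positive, 0 were called and 10 lay higher in all 4 mice (median 0.78). Cers3, a ceramide synthase for very long acyl chains, averaged 319.9 and 123 scaled CPM (1.49, SE 0.18, edgeR, adjusted p = 0.059), Sgpp2, a sphingosine phosphate phosphatase, 127 and 23.3 (2.88, SE 0.34, edgeR, adjusted p = 0.055), and Elovl1, a fatty acid elongase, 235 and 117 (0.97, SE 0.14, edgeR, adjusted p = 0.084). Elovl4 averaged 168 and 32.4, with differences over the mice from 0.22 to 6.82. Smpd1 (-0.43) and Cers4 (-0.16) were negative.

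Among the transcription factors of differentiation, 22 of 24 were tested, 16 were positive, 0 were called and 11 lay higher in all 4 mice (median 0.45). Zfp750, which drives terminal differentiation, averaged 394 scaled CPM in members and 71.1 in the other cells (2.51, SE 0.28, edgeR, adjusted p = 0.055). The grainyhead factors Grhl1 (2.03, SE 0.37, edgeR, adjusted p = 0.114) and Grhl3 (3.02, SE 0.66, adjusted p = 0.147) were higher in 4 of 4 mice, whereas Grhl2 (-0.33) was not. Ovol1, a repressor of basal genes, averaged 324 and 102 (1.80, SE 0.41, edgeR, adjusted p = 0.157). Cebpa had a difference of 1.87 and Klf4 of 0.28, and Ets1 of -3.43, none called. Maf was lower in all 4 mice (-0.83, SE 0.33, edgeR, adjusted p = 0.328).

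Notch signalling is known to drive the step out of the basal layer. Of 16 genes 14 were tested, 5 positive and 9 negative, with 0 called and a median of -0.33. Of the ligands, all 3 listed lay lower in members of all 4 mice: Dll1 averaged 4.50 and 68.6 scaled CPM (-4.25, SE 1.00, edgeR, adjusted p = 0.161), Jag2 14.7 and 134 (-3.38, SE 0.52, edgeR, adjusted p = 0.088) and Jag1 224 and 381 (-0.87, SE 0.18, edgeR, adjusted p = 0.133). Of the receptors, Notch3 averaged 47.9 and 14.2 (1.88, SE 0.57, edgeR, adjusted p = 0.23) and Notch2 98.6 and 59.2 (0.77, SE 0.26, edgeR, adjusted p = 0.263), both higher in 4 of 4 mice, and Notch1 had a difference of -0.22 with 2 mice on each side. The target Hes1 averaged 10.1 and 7.31 (0.22, SE 0.61, edgeR, adjusted p = 0.904), and Nrarp had a difference of 1.72.

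Tight and gap junction genes lay mostly higher, 13 of 16 tested of a list of 17, with 0 called, 7 higher in all 4 mice and a median of 0.48. Gjb2, a connexin of gap junctions, averaged 1111 and 259 scaled CPM (2.44, SE 0.26, edgeR, adjusted p = 0.055), and the connexin gene Gjb6 41.9 and 12.1 (2.41, SE 0.77, edgeR, adjusted p = 0.243). The connexin gene Gja1 had a difference of 0.54 (SE 0.15). The tight junction genes Tjp1 (0.02, SE 0.30), Cldn4 (-0.10, SE 0.65) and Cldn1 (1.82, SE 1.56) lay on different sides in different mice.

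Wound-type keratins accompanied the score. Krt16 averaged 6246 scaled CPM in members and 1619 in the other cells (2.30, SE 0.56, edgeR, adjusted p = 0.171). Krt6a averaged 6424 and 2706 (1.41, SE 0.25, edgeR, adjusted p = 0.11) and Krt6b 5024 and 1313 (2.34, SE 0.43, edgeR, adjusted p = 0.116); the pair is nearly identical and may share reads. All 3 were higher in 4 of 4 mice, and Krt16 and Krt6a had counts in every member. Krt17, of the same group, lay higher in 2 mice and lower in 2 (0.28, SE 0.41). Of the list of 8 wound and simple keratins, 5 were tested and 0 were called, with 4 positive, 1 negative and a median of 1.41. The negative gene was lower in all 4 mice. Krt8, a simple keratin, was at 0 in members and 0.5 CPM in the other cells. Krt18, a keratin of simple epithelia, was at 0 in all members and found in 14 other cells, at least 153-fold lower in members against a floor of 3 counts over the group, counting error only.

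Of the S100 proteins, S100a16 was called and S100a8 (2.75, SE 0.40, edgeR, adjusted p = 0.084), S100a9 (4.42, SE 1.45, edgeR, adjusted p = 0.255) and S100a14 (0.68, SE 0.08, edgeR, adjusted p = 0.055) were higher in 4 of 4 mice. S100a10 (-0.85, SE 0.14, edgeR, adjusted p = 0.105) and S100a4 (-0.39) were lower in 4 of 4, and the list of 11 had 5 positive and 6 negative genes with a median of -0.30, a sign that turned in 3 of the 24 settings. Of 14 retinoid genes 11 were tested, 6 positive and 5 negative, and their median of 0.16 was below 0 in 5 of 24 settings. Crabp2, a retinoic acid carrier, averaged 526 and 184 (1.83, SE 0.40, edgeR, adjusted p = 0.145) and Rarg, a retinoic acid receptor, 88.7 and 137 (-0.72, SE 0.18, edgeR, adjusted p = 0.182). Of the proteases and inhibitors 8 of 18 were positive and 0 called, and their median of -0.04 was above 0 in 8 of 24 settings. Serpinb12, a serpin of differentiated epithelium, averaged 81.4 and 3.55 (7.74, SE 1.92, edgeR, adjusted p = 0.175), Cstb, cystatin B, 539 and 301 (0.85, SE 0.10, edgeR, adjusted p = 0.055), and Ctsl, cathepsin L, 111 and 231 (-1.04, SE 0.16, edgeR, adjusted p = 0.088).

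Transcripts of dividing cells were found in both classes. Mki67 had counts in 46 of 71 members (64.8%) and 108 of 213 other cells (50.7%), and 44 of the 64 members with Krt1 also had Mki67. Of 34 genes of G2/M, 26 were positive, 0 were called and 8 lay higher in all 4 mice (median 0.38), among them Aurka, a mitotic kinase, at 0.96 (SE 0.31, edgeR, adjusted p = 0.253), Nusap1, a spindle protein, at 1.203 (SE 0.37, edgeR, adjusted p = 0.234) and Mki67 at 0.44 (SE 0.21, edgeR, adjusted p = 0.41). Of 30 genes of the S phase, 13 were positive and 17 negative, 0 were called and 0 lay higher in all 4 mice (median -0.02). Pcna, the replication clamp, averaged 143 and 129.9 (0.20, SE 0.24), and Mcm2, a replicative helicase subunit, 239 and 258 (-0.08, SE 0.27). Both medians moved with the choice of members. For G2/M the median was 0.01 (17 of 34 positive) with the score lacking Krt10, 0.02 (18 of 34) with the highest 20% of cells and 0.05 (19 of 34) with depth and detection trends removed. For the S phase it ran between -0.41 (0 of 30 positive, highest 20% of cells) and 0.25 (22 of 30, against the lowest 25% of cells), and was above 0 in 4 of 24 settings. Within the members, the G2/M score correlated with the suprabasal score over cells at rho = -0.34, -0.55, -0.01 and -0.31 in KO1, KO3, WT1 and WT2, against 0.19, -0.03, 0.31 and 0.28 over all cells, as a description over 14 to 22 and 54 to 88 cells.

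**Figure D5:**
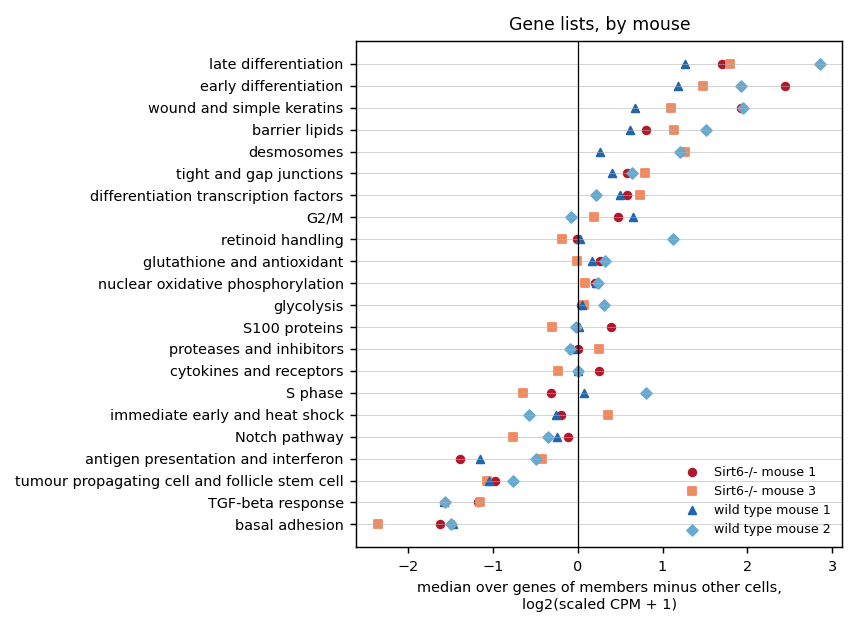
Median over the tested genes of each list of the difference of members minus other cells, log2(scaled CPM + 1), 1 point per mouse. Basal adhesion and TGF-beta response lie left of 0 and both differentiation lists right of 0 in all 4 mice, while the S phase list lies left of 0 in KO1 and KO3 and right of 0 in WT1 and WT2.

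Metabolic genes had small median differences. Of 19 glycolysis genes 18 were tested, 12 were positive, 0 called, 6 higher and 4 lower in all 4 mice (median 0.11). The sign depended on the measure. As a mean log2 value per cell, the list had a lower median in members of KO1 (6.9 against 7.2), KO3 (6.79 against 7.32) and WT1 (7.18 against 7.3). In WT2 it was higher (7.17 against 6.55). Ldha, lactate dehydrogenase A, averaged 6264 and 5232 scaled CPM (0.28, SE 0.11, edgeR, adjusted p = 0.327), while transporters lay on the other side: Slc2a1, the glucose transporter GLUT1, averaged 222 and 361 (-0.69, SE 0.16, edgeR, adjusted p = 0.162), and the monocarboxylate transporters Slc16a1 (-0.63, SE 0.12, edgeR, adjusted p = 0.128) and Slc16a3 (-1.37, SE 0.38, adjusted p = 0.201) were lower in 4 of 4 mice. Of 31 nuclear genes of oxidative phosphorylation 29 were positive, 0 called and 13 higher in all 4 mice, with a median of only 0.19. Glutathione and antioxidant genes were positive in 16 of 23 cases, with 0 called. Gsta4, a glutathione transferase, averaged 2033 and 1212 (0.90, SE 0.31, edgeR, adjusted p = 0.275), while Gpx1, glutathione peroxidase 1 (-0.59, SE 0.09, edgeR, adjusted p = 0.084), and Sod1 (-0.83, SE 0.15, adjusted p = 0.115) were lower in 4 of 4 mice.

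Genes of the response to TGF-beta, a growth arrest and matrix signal, lay lower as a group. All 15 tested genes of the list of 16 had a negative difference, 1 (Tnc) was called and 9 lay lower in all 4 mice (median -1.24). Thbs1, thrombospondin 1, averaged 136 and 992 scaled CPM (-4.30, SE 1.19, edgeR, adjusted p = 0.201), Tgfbi 239 and 740 (-1.71, SE 0.23, edgeR, adjusted p = 0.074) and Sparc 5.09 and 97.8 (-4.17, SE 0.66, edgeR, adjusted p = 0.096). Ccn2 was at 0 in members and 2.9 CPM in the other cells, at least 77.6-fold lower by the same floor of 3 counts. This bound covers counting error only, not the spread over cells. The receptor gene Tgfbr1 lay near 0 (-0.05, SE 0.44).

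Genes of tumour propagating and follicle stem cells were mostly lower, 12 of 13 tested of a list of 16, with 0 called, 4 lower in all 4 mice and a median of -1.28. Lgr6, a receptor of follicle stem cells, averaged 0.58 and 10.6 scaled CPM (-7.32, SE 2.22, edgeR, adjusted p = 0.229), and Tcf7l2, a WNT effector, 24.2 and 47.1 (-0.95, SE 0.20, edgeR, adjusted p = 0.141). Lgr5, its relative, and Lhx2 were at 0 in all members and at only 4.92 and 1.3 CPM in the other cells. Against the same floor they were at least 132-fold and 34.9-fold lower. These bounds cover counting error only, not the spread of so low a level over cells. Sox9 had a difference of -0.43 with 1 mouse on the other side, Sox2 of -1.04 (SE 2.98), and Pitx1 was the positive gene (0.85, SE 0.54). Of the cytokine genes, the neutrophil attractants Cxcl1 (41.1 and 235 scaled CPM, -2.66, SE 0.27, edgeR, adjusted p = 0.052) and Cxcl2 (-3.98, SE 1.04, adjusted p = 0.189), Tnf (-4.52, SE 1.42, adjusted p = 0.24) and the decoy receptor Il1r2 (-8.11, SE 2.22, adjusted p = 0.201) were lower in 4 of 4 mice. The EGF family ligand Epgn was higher in 4 of 4 (0.80, SE 0.21, edgeR, adjusted p = 0.196). Of 21 cytokine genes 17 were tested, 9 positive and 8 negative, 0 called, with a median of 0.07 that was below 0 in 4 of 24 settings. Antigen presentation genes were negative in 9 of 10 tested of a list of 14, 0 called, with B2m at 210.0 and 328 scaled CPM (-0.67, SE 0.11, edgeR, adjusted p = 0.105).

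Immediate early and heat shock genes, which respond to tissue handling and form 1 list, were negative in 15 of 21 with 0 called (median -0.23). By mouse, the median difference of the list was 0.36 in KO3, against -0.2, -0.26 and -0.57 in KO1, WT1 and WT2. As a mean log2 value per cell, the list had a higher median in members of KO3 (7.65 against 7.28) and also of WT1 (7.73 against 7.43). It was lower in KO1 (7.24 against 7.53) and WT2 (8.02 against 8.49). Egr1 averaged 512 and 822 scaled CPM (-0.62, SE 0.29, edgeR, adjusted p = 0.389), with KO3 on the other side (0.19), and Fos had a difference of 0.06 (SE 0.16). The heat shock genes Hspa1a and Hspa1b, which are near-identical copies, were each higher in 4 of 4 mice (0.72 for both, SE 0.17 for Hspa1a and 0.13 for Hspa1b). Markers of other cell types were at different levels. The 6 immune markers summed to between 0 and 33 CPM over the 4 mice in members and between 0 and 15.6 CPM in the other cells, the high value in each lying in WT2, and Cd3e and Cd207 were at 0 everywhere. At least 2 immune markers were found in 3 members and 0 other cells, and their part in the results was not tested. The 6 fibroblast markers summed to between 0 and 6.9 CPM in members and 0 and 1.5 in the other cells, with Col1a2, Dcn and Lum at 0 everywhere. The 5 endothelial markers summed to between 0 and 8.9 CPM in members and 7.2 and 8.9 in the other cells, and the 5 melanocyte markers to between 0.1 and 11.5 and 0.1 and 4.8. The 6 sebocyte markers, of which keratinocytes also express Mgst1, summed to between 156.2 and 242.4 CPM in members and 119.7 and 205.8 in the other cells, with Plin5 at 0, and 6 members and 8 other cells held at least 2 of them. The 5 inner root sheath markers, which include the keratinocyte factor Gata3, summed to between 72.6 and 134.7 CPM and 66.7 and 130.7, and 10 members and 41 other cells held at least 2 of them. Among these markers, Krt71 was at 0 in members and 0.36 CPM in the other cells. Krt25 was at 0 in the other cells and 4.49 CPM in members.

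Within the members, the comparison of genotypes asked whether suprabasal-leaning cells differ between the mice labelled Sirt6-/- and the wild type. With 2 mice each, edgeR called 0 of 12763 genes (0%), while 686 (5.37%) had an unadjusted p under 0.05, DESeq2 called 44 higher and 113 lower and limma-voom 0. Spink5 lay at 1066 and 1181 scaled CPM in members of KO1 and KO3, against 379 and 410.2 in members of WT1 and WT2 (log2 difference 1.51, SE 0.18, edgeR, adjusted p = 0.67). Pinlyp, an inhibitor of phospholipase A2, lay at 264 and 271 against 102 and 99.4 (1.41, SE 0.20), and Otop3, a proton channel, at 63.8 and 72.5 against 18.9 and 15.3 (1.99, SE 0.33). Fabp4, a fatty acid carrier, lay at 31.3 and 136 against 3.39 and 2.31 (4.87, SE 0.89), and Tdg-ps at 52.6 and 59.6 against 2.57 and 2.27, a pseudogene whose reads may be shared with its parent gene. On the other side, the non-coding RNA H19 lay at 0 and 0 against 30.2 and 46.2 scaled CPM and Depp1 at 0 and 0 against 44.7 and 28.2. Moxd1 lay at 22.2 and 10.8 against 102 and 122 (-2.76, SE 0.46), Cntn1 at 1.75 and 1.36 against 21.8 and 40.1 (-4.31, SE 0.70) and Pja2, a ubiquitin ligase, at 8.79 and 10.5 against 57.2 and 42.9 (-2.37, SE 0.41). All 10 had an adjusted p of 0.67 by edgeR. The mice of a genotype did not overlap those of the other in any of these genes. The rule chose these genes for the smallest p, which favours genes without overlap. The share without overlap over all genes was not counted.

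By list, late differentiation genes were positive in 14 of 17 between the genotypes within members (median 1.65, 0 called, 6 at an unadjusted p under 0.05), and basal adhesion genes in 2 of 21 (median -0.86, 0 called, 7 at an unadjusted p under 0.05). Over all 12763 genes tested, 5.37% had an unadjusted p under 0.05 by edgeR and the median was -0.01. The share of positive genes over all genes was not counted. Early differentiation genes were positive in 16 of 25 (median 0.51) and S phase genes in 3 of 30 (median -0.47), with 0 called in each. The members of KO1 and KO3 were chosen from mice whose cells scored higher, with median scores over all cells of 5.71 and 6.58 against 4.64 and 4.8 in WT1 and WT2. Members had median scores of 8.27 and 9.41 in KO1 and KO3, against 7.76 and 9.55 in WT1 and WT2, so that the genotypes overlapped in the members' own score.

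The last comparison asked whether the difference between members and other cells itself differed between the genotypes. The interaction of class and genotype was called for 0 of 16211 genes by edgeR (0%), with 555 (3.42%) at an unadjusted p under 0.05, and DESeq2 called 34 positive and 83 negative differences and limma-voom 0. Ripk4, a kinase needed for keratinocyte differentiation, lay at 377 and 333 scaled CPM in members of KO1 and KO3 against 184 and 141 in their other cells, and at 229.6 and 427 in members of WT1 and WT2 against 302 and 449.5 (difference of log2 differences 1.37, SE 0.22, edgeR, adjusted p = 1). Rnf14 (1.76), Ptprz1 (1.404) and Hspa13 (2.21) had the same pattern of higher in members of KO1 and KO3 and lower in those of WT1 and WT2. The opposite sign was found for Nedd9, a focal adhesion scaffold, at 0 and 0 in members of KO1 and KO3 against 76.5 and 58.0 in their other cells, and 7.54 and 6.99 in members of WT1 and WT2 against 94.0 and 85.5. Ctnnal1 lay at 0 and 0.06 against 112 and 66.7 in KO1 and KO3, and at 8.70 and 11.1 against 157 and 185 in WT1 and WT2. H19, Slc27a3 and Gm94 had negative differences too, and each gene named here had an adjusted p of 1. With limma on mean log2 values per cell the difference turned to 0.40 for Gm94 and 1.03 for Ctnnal1. S phase genes had a negative interaction in 29 of 30 (median -0.92), with 11 at an unadjusted p under 0.05 and 0 called, and their median difference of members minus other cells was -0.32 and -0.64 in KO1 and KO3 against 0.07 and 0.81 in WT1 and WT2.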

How the data were processed

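The labels describe Smart-seq2 libraries of single sorted cells from 4 mice, 1 cell per well. The deposited values are expected counts per gene, which the authors obtained using the aligner STAR and the quantifier RSEM (mm10, GRCm38), per the submitters' processing notes, which name no versions. Expected counts divide reads among similar genes, so near-identical copies are uncertain. Of the 54247 gene IDs, 54156 were given a symbol from the annotation of the same build. All 284 cells were used, with no further filter and no doublet caller.

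Members were the highest 25% of cells of each mouse by the mean of log2(CPM + 1) over 7 genes. The members, gene lists and tests were chosen with earlier results of these data known. Counts were summed per mouse and class (8 sums), rounded to whole numbers, filtered with filterByExpr, TMM-scaled and fitted with edgeR 4.0.16 (quasi-likelihood, R 4.3.3) on mouse and class. Genotypes were compared over the 4 member sums, and their difference between classes as an interaction. Adjusted p-values are Benjamini-Hochberg over all genes tested other than the 7, called under 0.05, and the p-values measure the spread between mice only. Named genes are those called in the first comparison, the 5 with the smallest p in each direction in the other comparisons (at least 10 CPM), the 7 genes and members of the lists; some of these are not reported here. Alternatives used DESeq2 1.42.0, limma 3.58.1 (voom and mean log2 values), other filters, thinning to 500000 counts, other shares of cells, scores without 1 gene, and each mouse left out. Shares of cells and floors of 3 counts cover counting error only, since reads without molecular identifiers are not independent molecules. Descriptions used Python 3.11.15 with numpy 2.4.6, pandas 2.3.3 and scipy 1.17.1. The test of members against other cells was tried on simulated sums with the members set beforehand. The choice by score and the other comparisons were not simulated. Promoter sequences are RefSeq's, on GRCm38.p6.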

Additional observations from a re-analysis of the deposited data

Results flagged for a closer look

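Of 56 values examined over the 4 mice, chance alone sets a mouse apart in about 1 in 20. The difference of Ezr, members minus other cells, was 0.79 on the log2 scale in WT2, against 0.91, 0.91 and 0.92 in KO1, KO3 and WT1. That of Tmprss13 was 1.05 in WT1, against 1.48, 1.50 and 1.44 in KO1, KO3 and WT2. The median difference of the desmosome list was 0.26 in WT1, against 1.22, 1.26 and 1.2 in KO1, KO3 and WT2. That of the glycolysis list was 0.31 in WT2, against 0.04, 0.07 and 0.05 in KO1, KO3 and WT1. That of the retinoid list was 1.12 in WT2, against -0.01, -0.19 and 0.03 in KO1, KO3 and WT1.

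Medians of 3 lists lay on different sides in the mice labelled Sirt6-/- and the wild-type mice, for 2 of them by as little as the last digit in a mouse, and for a list this difference was not tested. S phase genes had medians of -0.32 and -0.64 in KO1 and KO3 against 0.07 and 0.81 in WT1 and WT2, with a median interaction of -0.92. The retinoid list had a median interaction of -0.67, and the list of proteases and inhibitors had medians of 0.0, without a sign at these digits, and 0.25 in KO1 and KO3 against -0.07 and -0.09 in WT1 and WT2 (a difference of 0.2). Of single genes, edgeR called 0 interactions.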

How the results depend on the processing

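Genes called higher and lower in members (8 and 15 by edgeR) numbered 632 and 1137 with DESeq2, 95 and 138 with limma-voom, 530 and 349 with limma on mean log2 values per cell, 2 and 7 with no filter on low counts, 124 and 163 at 10 CPM or more, and 45 and 78 after thinning. With the highest 20% of cells they numbered 0 and 0 (1993 genes at an unadjusted p under 0.05), with the highest 33% 55 and 64, against the lowest 25% of cells 45 and 56, and with the depth and detection trends removed from the score 3 and 5. With the score lacking Krt1 they numbered 42 and 38, Krt10 22 and 34, Sbsn 2 and 3, Lgals7 23 and 39, Ly6d 3 and 9, and Calm4 31 and 32. Leaving out 1 mouse gave between 0 and 0 calls in either direction (1609 to 1911 genes at an unadjusted p under 0.05). Without the mouse as a replicate block the fit called 0 and 0 (1379 genes at an unadjusted p under 0.05). The 23 genes kept their direction in each of these settings in which they were tested, and the cause of the changed counts was not tested. Between genotypes within members DESeq2 called 44 and 113, and for the interaction 34 and 83, where every other setting run called 0. No pairing of mice of different genotypes was possible, since their numbers do not pair them. The interaction turned to 0.40 for Gm94 and 1.03 for Ctnnal1 with limma on mean log2 values. With 4 mice, 2 a genotype, and cells of a genotype on plates of their own, genotype and plate cannot be told apart.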
